A study of Mus musculus with 6 samples.

Results

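The genes described here are 8 genes of type 2 immunity and of group 2 innate lymphoid cells (ILC2s), a tissue lymphocyte that lacks an antigen receptor: Il1rl1, Gata3, Il13, Il5, Il4, Calca, Areg and Hs3st1. They are 8 of the 32285 genes counted, and they were followed through 24253 cells of the right lung of 6 mice to find which cells held their transcripts. Because the genes and the split of lymphocytes by the T cell receptor genes Cd3e, Cd3d and Cd3g were chosen from these same cells, levels across cell types are given as a description, with no test. All 6 mice were hCTLA4 males of 12 weeks, animals in which exons of the human CTLA4 gene let a human antibody bind, and all 6 had received bleomycin to injure the lung (1.25 U per kg, 2 doses, 2 weeks apart). From day 21 after the second dose, 3 mice received the isotype control antibody IgG1 and 3 received ipilimumab. Ipilimumab is an antibody against human CTLA4 that the labels spell anti-CLTA4 mAb. Each antibody was given at 5 mg per kg for 4.5 weeks. No mouse without bleomycin was among these samples, and each mouse gave 1 library of 10x Genomics Single Cell 3' v3.1.

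In type 2 immunity, epithelial and stromal cells release the alarmin IL-33, which binds ST2, the receptor encoded by Il1rl1. ILC2s, T helper 2 cells, a subset of regulatory T cells, basophils and mast cells can carry this receptor. Gata3 encodes the transcription factor that ILC2s and T helper 2 cells need for their development and for their cytokine genes. Il13 and Il5 encode the cytokines that act on epithelium, fibroblasts and eosinophils, and Il4 encodes the cytokine that T helper 2 cells, basophils and natural killer T cells make. Calca encodes the neuropeptide CGRP and, from the same gene, calcitonin, and UMIs per gene cannot tell these apart. Areg encodes amphiregulin, a ligand of the epidermal growth factor receptor, and Hs3st1 encodes an enzyme that adds 3-O-sulfate to heparan sulfate.

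The genes Il4, Il13 and Il5 lie within 122 kb of each other on mouse chromosome 11 (GRCm38), and the other 5 genes are on chromosomes 1, 2, 5 and 7. The 250 bases before the RefSeq starts of Il1rl1, Il13 and Il5 are shown as examples of windows that held a GATA motif. The protein of Gata3 binds GATA motifs. Every other gene of the 8, not these alone, was found with Gata3 in the ILC2-like cells described below. The first motif searched was AGATAA, which on the opposite strand reads TTATCT. The next motif was AGATAG, which on the opposite strand reads CTATCT. A further motif was TGATAA, which on the opposite strand reads TTATCA. The last motif was TGATAG, which on the opposite strand reads CTATCA, and matches are in capitals. The sequences are from RefSeq, build GRCm38.p6, 5′ to 3′ on the strand of each gene.
Il1rl1, upstream start, chr1:40429320-40429569, plus strand: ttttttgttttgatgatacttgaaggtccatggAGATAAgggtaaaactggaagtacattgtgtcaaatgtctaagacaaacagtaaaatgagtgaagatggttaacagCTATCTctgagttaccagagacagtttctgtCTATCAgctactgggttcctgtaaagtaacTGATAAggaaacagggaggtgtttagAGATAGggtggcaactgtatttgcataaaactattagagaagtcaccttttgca
Il13, chr11:53634703-53634952, minus strand: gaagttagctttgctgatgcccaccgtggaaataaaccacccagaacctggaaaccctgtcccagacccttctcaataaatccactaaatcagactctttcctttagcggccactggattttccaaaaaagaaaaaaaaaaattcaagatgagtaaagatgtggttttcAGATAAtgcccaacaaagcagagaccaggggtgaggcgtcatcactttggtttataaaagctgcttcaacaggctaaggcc
Il5, chr11:53720544-53720793, plus strand: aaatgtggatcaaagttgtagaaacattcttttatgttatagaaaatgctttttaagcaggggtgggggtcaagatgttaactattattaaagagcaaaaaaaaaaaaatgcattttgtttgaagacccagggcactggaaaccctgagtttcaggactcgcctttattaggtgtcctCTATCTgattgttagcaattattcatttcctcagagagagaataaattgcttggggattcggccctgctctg
The upstream Il1rl1 window held 5 matches, the Il13 window 1 match that began 81 bases before the start and the Il5 window 1 match that began 72 bases before it. Of the 10 RefSeq windows of the 8 genes, 6 held at least 1 match, and of all 32851 RefSeq windows of the same length, 26.5% did. The second window of Il4 and those of Gata3, Areg and Hs3st1 held none.

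Each unique molecular identifier (UMI) counted marks 1 captured transcript of a 3' library, and counts were not scaled by gene length. Effects of gene length on capture were not examined. Library totals ran from 37666042 to 48612412 UMIs, the cells used per mouse from 3268 to 4349 and the median per cell from 5918 to 7906 UMIs. The share of UMIs inside called barcodes was 78.9% for ipilimumab mouse 1 and between 92.4% and 93.1% for the other 5 mice. Each pair of libraries shared 0 to 8 cell barcodes. CPM below is the UMIs of a gene scaled to a common total of the same cells (counts per 1e6 UMIs), and limits on single counts cover counting error only. In sums over many cells, more cells of a type and more RNA per cell cannot be told apart.

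Several of the 8 genes, Il1rl1 and Gata3 in every cell and Il13 and Il4 in few, were found together in a cluster of 45 cells. It was found without these 8 genes and without Cd3e, Cd3d and Cd3g, and was called ILC2-like because markers of ILC2s led it. All 45 cells held UMIs of Rora, a transcription factor of ILC2s, and 44 held UMIs of Il7r, the receptor chain for IL-7. Rnf128 was found in 29 cells, the killer cell lectin receptor gene Klrg1 in 27, the arginase gene Arg1 in 22, Il18r1 in 18, and Il9r and Il17rb in 15 each. Nmur1 was found in 2 cells and Ptgdr2 in 0. ILC2 markers also led clusters of 31 and 42 cells, in which 93.5% and 100% of cells had a Cd3 UMI. They were left unnamed by a limit on such cells that was added after seeing the data. Their scores were 3.40 for ILC2 markers against 1.47 for T cell markers in the 31 cells and 1.40 against 0.0558 in the 42 cells, beside 4.56 against 0.0212 in the ILC2-like cluster. The 42 cells were led by Trdc, Cd163l1 and Il17a, genes of gamma delta T cells that make IL-17.

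T cell markers of the same cells were low for the most part. Cd4, Cd8a and Cd8b1 had 0 UMIs in the 45 cells, which allows up to 8.34 CPM and up to 6.67% of cells. Trac, the constant gene of the T cell receptor alpha chain, stood at 22.2 CPM against 298 in lymphoid cells with a Cd3 UMI. Trbc1 and Trbc2, the beta chain genes, were found in 34 and 35 cells, at 283 and 289 CPM against 521 and 887. A Cd3 UMI was found in 10 of the 45 cells, with 34 of their 40 Cd3 UMIs from Cd3g, 5 from Cd3e and 1 from Cd3d. By mouse these 10 cells were 0, 0 and 1 with IgG1 and 5, 2 and 2 with ipilimumab. Of the 10 natural killer cell markers checked, 8 had 0 UMIs and Prf1 and Klri2 had 1 UMI each, and of the 9 basophil and mast cell markers 7 had 0 UMIs, Cpa3 3 and Cma1 1.

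Il1rl1 and Gata3, the receptor and the transcription factor, were found in all 45 ILC2-like cells. Il1rl1 had 423 UMIs there (1175 CPM) with a median of 9 UMIs per cell and a range of 1 to 26, and Gata3 had 347 UMIs (964 CPM) with a median of 6 and a range of 1 to 27. After each cell was thinned to 2000 UMIs, 91.1% of ILC2-like cells still held Il1rl1 and 93.3% Gata3. Among lymphoid cells with a Cd3 UMI and a CD8 gene, the comparator here, the thinned shares were 0.212% and 4.83%, and the median depths of both classes were 7346 and 9767 UMIs per cell before thinning.

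The cytokine genes were found in fewer of the 45 cells. Il5 was found in 14 cells with 64 UMIs, of which 33 came from 2 cells of ipilimumab mouse 3. Il13 was found in 2 cells with 11 UMIs, 9 of them from 1 cell, and both cells also held Il5. Il4 was found in 4 cells with 6 UMIs. All 14 cells with Il5 held Il1rl1 and Gata3, 13 of them held Areg, 12 held Hs3st1 and 10 held Calca.

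The other products were more widespread. Areg was found in 36 of the 45 cells with 463 UMIs (1286 CPM, range 0 to 78 per cell), Hs3st1 in 29 with 138 UMIs (383 CPM) and Calca in 25 with 201 UMIs (558 CPM), of which 65 UMIs came from 2 cells. Every ILC2-like cell held at least 2 of the 8 genes and none held all 8, with 3, 9, 9, 15, 7 and 2 cells holding 2, 3, 4, 5, 6 and 7 of them. After thinning to 2000 UMIs the share with at least 2 was 97.8%, against 0.159% of the cells with a Cd3 UMI and a CD8 gene. Among cells with a Cd3 UMI and Foxp3 it was 13.3% (Il1rl1 16.8%, Gata3 17.9%), and among those with Cd4 and no Foxp3 2.20% (Il1rl1 1.85%, Gata3 11.9%). In T cell clusters the cells without a Cd3 UMI stood at 5.56%, plasma-like cells stood at 4.4% and proliferating-like cells at 4%. Before thinning, 1 of 332 plasma-like cells held 7 of the 8 genes.

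**Figure D1:**
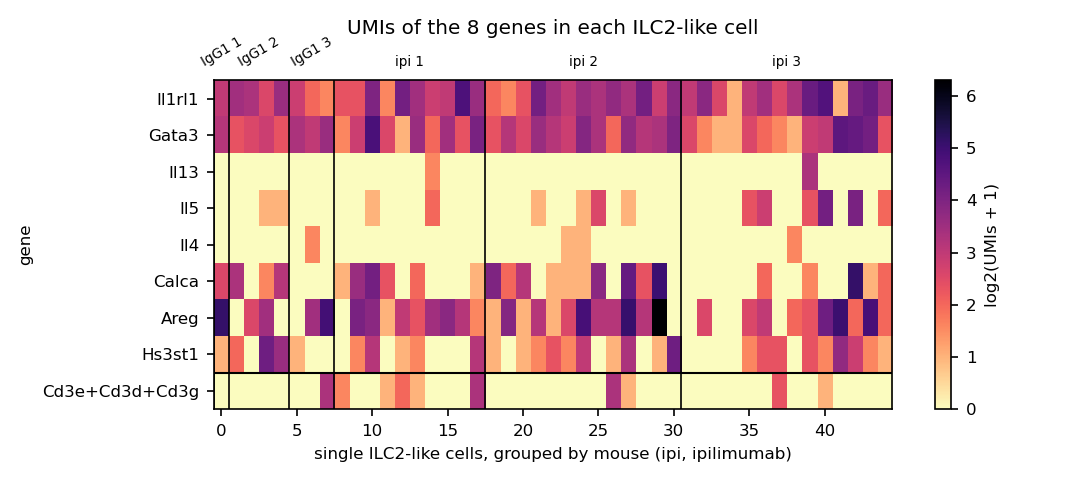
Each column is 1 of the 45 ILC2-like cells, grouped by mouse, each row is 1 of the 8 genes or the summed Cd3 genes, and the color is log2(UMIs + 1). Il1rl1 and Gata3 fill every column, Areg, Hs3st1 and Calca many, Il5 14 columns and Il13 2, and 10 columns hold a Cd3 UMI.

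The 10 ILC2-like cells with a Cd3 UMI carried the same receptor and transcription factor genes as the other 35. Il1rl1 stood at 994 CPM in the 10 cells and at 1243 in the 35, Gata3 at 717 and 1056, and Areg at 1045 and 1376. Calca stood at 297 and 656 CPM and Hs3st1 at 277 and 423. Il5 was found in 2 of the 10 cells and in 12 of the 35, and Il13 and Il4 were found in the 35 cells alone.

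**Figure D2:**
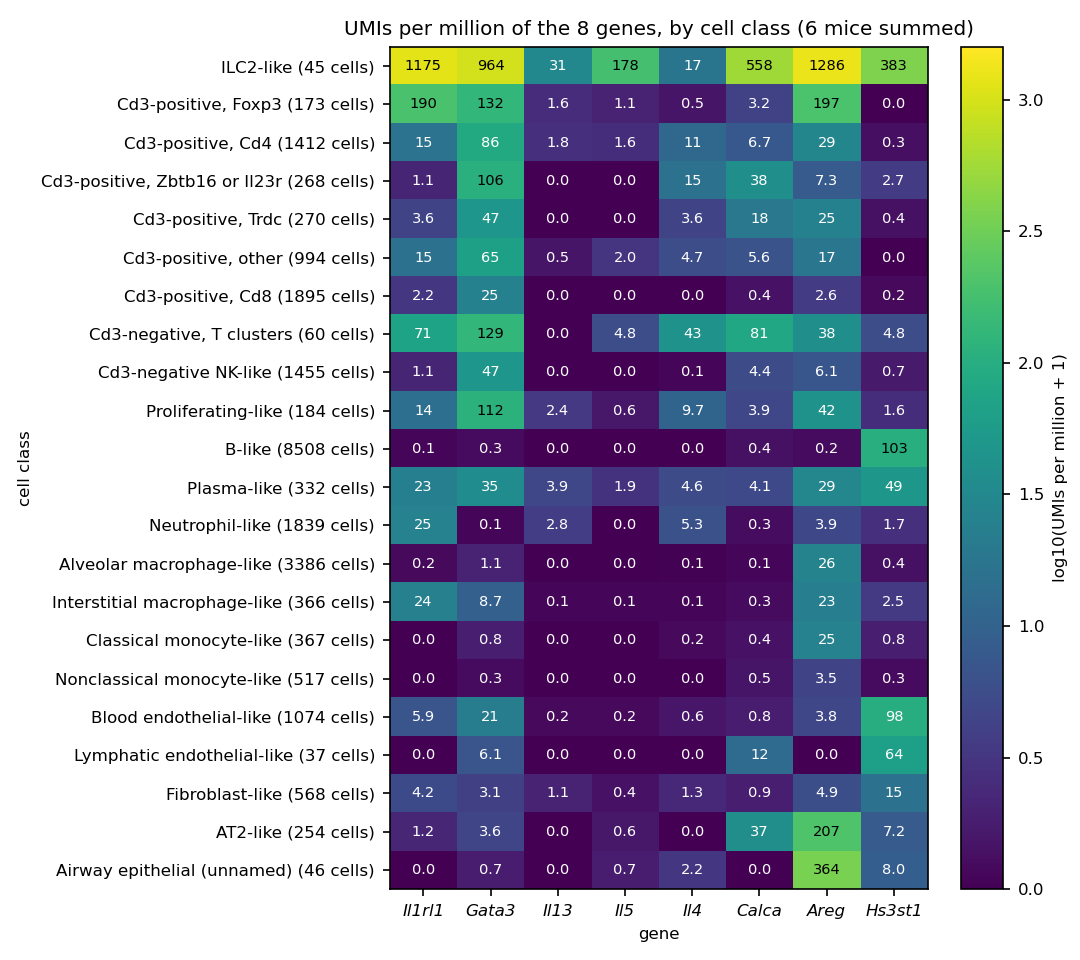
Rows are cell classes with their number of cells, columns are the 8 genes, and each field of the grid gives CPM over all 6 mice, with the color on a log10 scale. Among the classes drawn, the ILC2-like row holds the highest value of 7 genes, and Il4 stands at 43 in the 60 lymphoid cells of T cell clusters without a Cd3 UMI. The 9 cells with basophil and mast cell markers are not drawn as a row.

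As a share of all its UMIs, each gene had its own spread over cell types. ILC2-like cells, 45 of 24253, held 52.9% of the 121 Il5 UMIs, 29.3% of the 685 Calca UMIs and 23.9% of the 1768 Il1rl1 UMIs. They held 11.5% of the 96 Il13 UMIs, 9.21% of the 5025 Areg UMIs, 7.81% of the 4445 Gata3 UMIs, 2.16% of the 6386 Hs3st1 UMIs and 1.70% of the 352 Il4 UMIs. Lymphoid cells with a Cd3 UMI outside that cluster held 60.2% of Il4, 58.8% of Gata3, 40.7% of Calca, 39.9% of Il1rl1 and 29.2% of Il13. The 184 proliferating-like cells, from clusters in which 97.3% and 94.4% of cells had a Cd3 UMI, were not counted as lymphoid. They are left out of the groups with and without a Cd3 UMI here and below. They held 13.6% of Il4, 12.5% of Gata3 and 12.5% of Il13.

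**Figure D3:**
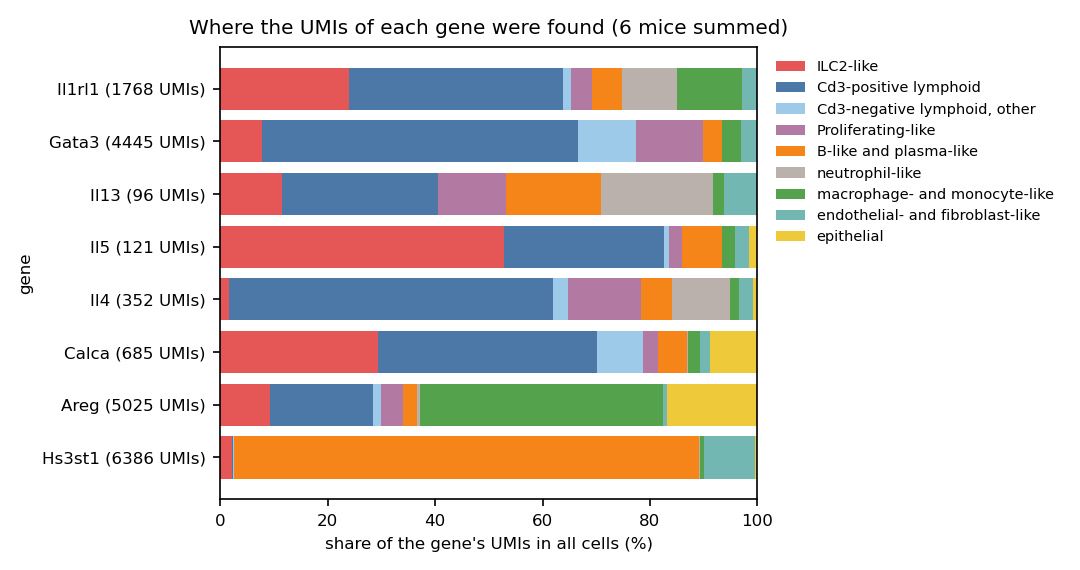
Each bar is 1 gene, its length is 100% of the UMIs of that gene in all cells of the 6 mice, and the colors are the cell classes that hold them. ILC2-like cells hold 52.9% of the Il5 UMIs, B-like and plasma-like cells 86.5% of Hs3st1 and macrophage-like and monocyte-like cells 45.2% of Areg. The cells with basophil and mast cell markers are counted within the classes drawn.

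Split by Cd3 alone, 5022 lymphoid cells had at least 1 UMI of Cd3e, Cd3d or Cd3g and 1550 had none. Il1rl1 stood at 34.9 CPM without a Cd3 UMI and 17.6 with one, Calca at 22.9 and 6.76, Hs3st1 at 11.8 and 0.944, Il5 at 4.65 and 1.19, Areg at 42.4 and 23.5, and Gata3 at 75.0 and 58.9. Il4 went the other way, at 1.58 CPM without a Cd3 UMI and 4.65 with one. Of the UMIs in cells without Cd3, the 35 ILC2-like cells among them gave 326 of 352 for Il1rl1, 361 of 428 for Areg, 172 of 231 for Calca, 111 of 119 for Hs3st1, 46 of 47 for Il5 and 11 of 11 for Il13. Gata3 was less concentrated, with 277 of 757 UMIs in the ILC2-like cells and 453 in the 1455 NK-like cells.

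Among cells with a Cd3 UMI, the 173 cells with a Foxp3 UMI, the gene of regulatory T cells, held Il1rl1, Gata3 and Areg and almost none of the other 5 genes. Il1rl1 stood there at 190.5 CPM, with 0, 98.3 and 101 in IgG1 mice 1, 2 and 3 and 96.4, 230 and 468 in ipilimumab mice 1, 2 and 3. Areg stood at 34.5, 84.3 and 175 with IgG1 and at 247, 287 and 224 with ipilimumab. Gata3 stood at 68.9, 66.7 and 67.5 with IgG1 and at 103, 218 and 208 with ipilimumab. The groups overlapped for Il1rl1 and did not for Areg and Gata3, which describes 8.8% of the genes with enough UMIs in this gate. Calca had 6 UMIs in these cells, Il13 3, Il5 2, Il4 1 and Hs3st1 0.

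Wherever cells with a Cd3 UMI outside the ILC2-like cluster are split here, each was placed by the first match in a fixed order. The order was Foxp3, Trdc, Zbtb16 or Il23r, Cd4 without a CD8 gene, and a CD8 gene without Cd4. The Cd4 gate of 1412 cells held most of the Il4 and Il13 UMIs found in lymphoid cells with a Cd3 UMI outside the ILC2-like cluster. The 1412 cells had 128 Il4 UMIs in 18 cells and 21 Il13 UMIs in 3 cells. By mouse the Il4 UMIs were 0, 1 and 48 with IgG1 and 11, 2 and 66 with ipilimumab, so that IgG1 mouse 3 and ipilimumab mouse 3 held most of them. The unnamed cluster of 31 cells described above, led by Tnfsf8, Skap1 and Cd40lg, had 3, 2 and 3 cells with IgG1 and 2, 6 and 15 with ipilimumab, which overlapped. It held 76 Il4 UMIs in 12 cells, and 47 of these came from 1 cell of IgG1 mouse 3. Its 14 Il13 UMIs came from 2 cells, 13 of them from 1 cell of the same mouse. Of all 7 lymphoid cells with a Cd3 UMI and Il13 outside the ILC2-like cluster, 7 held Gata3, 5 Il1rl1 and 3 Il5.

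In innate-like T cells, Calca and Il4 were found with little Il1rl1. The 268 cells with a Cd3 UMI and a UMI of Zbtb16 or Il23r, genes of natural killer T and IL-17-producing T cells, had 100 Calca UMIs in 28 cells, 39 Il4 UMIs in 21 cells and 3 Il1rl1 UMIs. Calca stood at 20.7, 22.6 and 15.3 CPM with IgG1 and at 17.6, 133 and 44.7 with ipilimumab, which overlapped. Il4 stood at 14.8, 6.78 and 23.0 with IgG1 and at 24.7, 9.50 and 8.93 with ipilimumab, and Il13 and Il5 had 0 UMIs in this gate.

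Cells of 9 barcodes carried at least 3 of 9 markers of basophils and mast cells, the granulocytes that release IL-4 and IL-13. They were 0, 0 and 1 by mouse with IgG1 and 3, 1 and 4 with ipilimumab. They were left within the cell classes that the clusters gave, so their UMIs are counted in those classes too. These 9 cells held 34 of the 96 Il13 UMIs and 55 of the 352 Il4 UMIs, 44 Hs3st1 UMIs and 18 Il1rl1 UMIs. In CPM, Il13 stood at 451, Il4 at 729 and Hs3st1 at 583 in the 9 cells, above 30.6, 16.7 and 383 in the ILC2-like cells, and Il1rl1 stood at 239. Gata3 and Il5 had 0 UMIs in them, and none of the 9 had a Cd3 UMI. The markers Gata2 and Cpa3 were found in 8 and 9 of them and Mcpt8, a basophil protease, in 3.

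Outside the clusters counted as lymphoid, Areg and Hs3st1 were broad, and part of the UMIs of the other genes was found there too. Neutrophil-like cells held 20.8% of the Il13, 10.8% of the Il4 and 10.2% of the Il1rl1 UMIs. Plasma-like cells held 16.7% of the Il13 UMIs. The 3386 alveolar macrophage-like cells held 1933 Areg UMIs (26.0 CPM), 46 cells of the unnamed airway epithelial clusters stood at 364 CPM and 254 AT2-like cells at 207. The 8508 B-like cells held 5318 Hs3st1 UMIs (103 CPM) and the 1074 blood endothelial-like cells 518 (98.4 CPM). Il1rl1 stood at 25.1 CPM in neutrophil-like and 23.6 in interstitial macrophage-like cells, against 0.0968 in B-like cells. In the AT2-like cells, 59 of 61 Calca UMIs came from 1 cell of ipilimumab mouse 1, which also held 66 UMIs of 5 neuroendocrine markers.

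More ILC2-like cells were found with ipilimumab. They numbered 1, 4 and 3 in IgG1 mice 1, 2 and 3 and 10, 13 and 14 in ipilimumab mice 1, 2 and 3, that is 0.0230%, 0.0946% and 0.0918% of all cells against 0.230%, 0.325% and 0.344%. All 3 ipilimumab mice lay above all 3 IgG1 mice. The mean share was 0.0698% ± 0.0406 with IgG1 and 0.2999% ± 0.0611 with ipilimumab (SD, n = 3 each), a log2 difference of 2.08 with a standard error of 0.62 (edgeR on cells per class, adjusted p = 0.0174 over 16 classes). The share was called at an adjusted p below 0.05 for 2 of the 16 classes, or 12.5%, the other being AT2-like cells. By an exact two-sided permutation test the shares gave p = 0.1, the smallest value 3 against 3 mice can give. The call rested on single mice: without IgG1 mouse 1, IgG1 mouse 2, ipilimumab mouse 2 or ipilimumab mouse 3 the adjusted p was 0.135, 0.0882, 0.0762 and 0.12. With the unnamed clusters of 31 and 42 cells counted as ILC2-like too, an alternative added after seeing the data, the cells were 8, 14 and 7 with IgG1 and 17, 32 and 40 with ipilimumab. The shares were then 0.243% ± 0.0778 and 0.725% ± 0.303 (SD, n = 3 each; log2 difference 1.56, SE 0.51, edgeR adjusted p = 0.0441; exact two-sided permutation p = 0.1). Ptpn13, Inpp4b, Il2ra and Cxcr6, which lead this cluster, are also among the genes called below, so its share and their levels are not independent measurements.

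Counting cells by the 8 genes themselves, without the cluster, gave 1, 7 and 8 lymphoid cells with no Cd3 UMI and at least 2 of the genes with IgG1 and 8, 14 and 17 with ipilimumab. As shares of all cells these were 0.144% ± 0.112 and 0.317% ± 0.120 (SD, n = 3 each; exact two-sided permutation test, p = 0.2), and IgG1 mouse 3 lay above ipilimumab mouse 1. With each cell thinned to 2000 UMIs, or with at least 3 genes, the groups did not overlap and the exact permutation p was 0.1. The 8 genes and the split by Cd3 were chosen from these same cells. These counts and their p values are therefore a description and not independent evidence. Cells with a Cd3 UMI and at least 2 of the genes, ILC2-like cells included, numbered 23, 28 and 31 with IgG1. With ipilimumab they numbered 41, 54 and 82. As shares of all cells these were 0.529%, 0.662% and 0.949% with IgG1 and 0.944%, 1.35% and 2.02% with ipilimumab. By share, IgG1 mouse 3 lay above ipilimumab mouse 1.

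**Figure D4:**
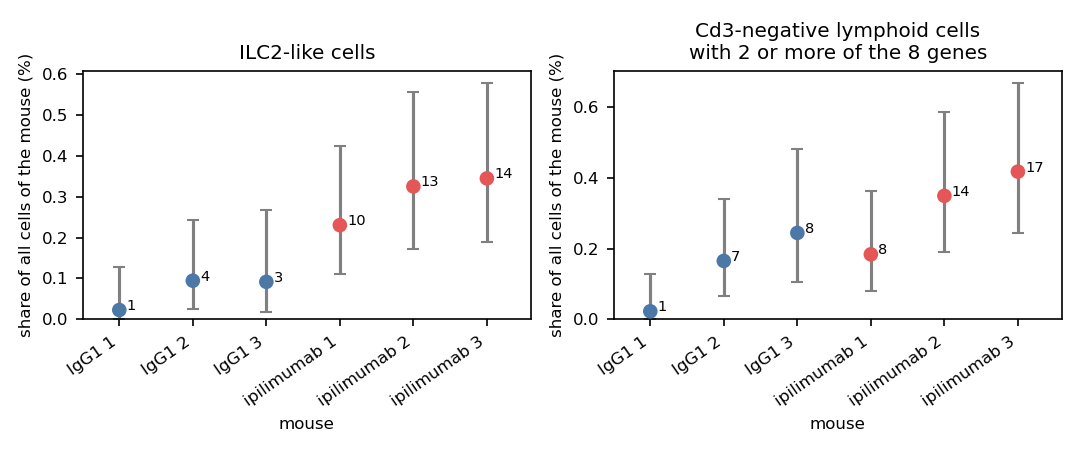
Points give the share of all cells of each mouse in percent, numbers beside them the cells counted, bars the exact 95% binomial interval, blue IgG1 and red ipilimumab. ILC2-like cells run from 1 to 4 per mouse with IgG1 and from 10 to 14 with ipilimumab, and in the count by 2 or more of the 8 genes IgG1 mouse 3 lies above ipilimumab mouse 1.

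In lymphoid cells without a Cd3 UMI, Il1rl1 and Areg were higher with ipilimumab. Il1rl1 stood at 6.99, 20.2 and 6.99 CPM in IgG1 mice 1, 2 and 3 and at 44.7, 44.1 and 75.7 in ipilimumab mice 1, 2 and 3. Areg stood at 31.0, 13.7 and 8.27 with IgG1 and at 52.7, 77.2 and 58.1 with ipilimumab. Neither gene overlapped between the groups. The log2 change was 2.20 (SE 0.33) for Il1rl1 and 1.92 (SE 0.30) for Areg, with adjusted p values of 0.0149 and 0.0202 (edgeR quasi-likelihood test, Benjamini-Hochberg over 9025 genes). Calls needed an adjusted p below 0.05 and a log2 change above 0.3. They fell on 8 genes, 0.0886% of those tested, all higher with ipilimumab. Il1rl1 and Areg are 2 of these 8, and since the genes were chosen with these data known their calls are not independent evidence.

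Of the remaining genes in these cells, 3 passed the filter on low counts and did not pass the test. Gata3 stood at 63.6, 48.1 and 83.3 CPM with IgG1 and at 85.9, 83.4 and 84.2 with ipilimumab (log2 difference 0.40, SE 0.17, edgeR adjusted p = 0.838). Calca stood at 4.66, 17.5 and 10.8 with IgG1 and at 23.8, 38.4 and 31.9 with ipilimumab (1.47, SE 0.32, edgeR adjusted p = 0.224). Hs3st1 stood at 0.776, 18.0 and 0.636 with IgG1 and at 8.66, 16.3 and 19.9 with ipilimumab, where IgG1 mouse 2 fell within the ipilimumab range (1.09, SE 0.64, edgeR adjusted p = 0.859). Calca was called under 3 of 15 alternatives, with no filter on low counts, without IgG1 mouse 2 and with cells called by UMI total alone (edgeR adjusted p = 5.81e-06, 0.0390 and 0.0454). Without IgG1 mouse 2, 1 of 14 alternatives for that gene, Hs3st1 was called at a log2 difference of 4.33 (edgeR adjusted p = 0.0182). Il5, Il4 and Il13 had too few UMIs to be tested. Il5 had 0, 2 and 1 UMIs with IgG1 and 4, 7 and 33 with ipilimumab, Il4 0, 0 and 3 against 1, 2 and 10, and Il13 0, 0 and 0 against 2, 0 and 9, where 0 UMIs over the IgG1 mice allow up to 0.640 CPM. The groups did not overlap for 5 of the 8 genes, Il1rl1, Gata3, Il5, Calca and Areg. Il5 was not among the genes tested, and for 4.93% of those every ipilimumab mouse lay above every IgG1 mouse. At an unadjusted p below 0.05, 4 of the 8 (Il1rl1, Gata3, Calca and Areg) were higher with ipilimumab, as were 3.14% of the genes tested. Because the 8 genes were chosen with these data known, these counts are not independent evidence.

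The sums were also made without the 35 ILC2-like cells, an alternative added after seeing the data. These cells held most of the Il1rl1 and Areg UMIs of the gate, as given above, so the loss of their calls follows from how the sums were made and tests no cause. Without them 0 genes were called by the same test, Areg stood at a log2 difference of 1.16 (edgeR adjusted p = 0.913), Gata3 at -0.38 and Calca at -0.28, and Il1rl1 had too few UMIs to be tested. Both calls were also lost without ipilimumab mouse 2 and without ipilimumab mouse 3, that of Il1rl1 without IgG1 mouse 1 and that of Areg without IgG1 mouse 2 and by DESeq2 (adjusted p = 0.317). Whether single ILC2-like cells changed their levels was not tested, since each IgG1 mouse had fewer than the 5 cells set as a minimum. Over all ILC2-like cells of a group Il1rl1 stood at 760 CPM with IgG1 (8 cells) and 1275 with ipilimumab (37 cells), Gata3 at 774 and 1010, Areg at 1262 and 1292, Calca at 344 and 610, Hs3st1 at 487 and 358, and Il5 at 28.7 and 214. Of the 69750 UMIs of the IgG1 cells, 18913 came from 1 cell of IgG1 mouse 3 with 2 Il1rl1 UMIs and 9 Cd3 UMIs. In the ILC2-like cells without a Cd3 UMI, Il1rl1 stood at 1003 CPM with IgG1 (7 cells) and 1300 with ipilimumab (28 cells). Gata3 stood there at 846 and 1106 and Areg at 1161 and 1428.

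**Figure D5:**
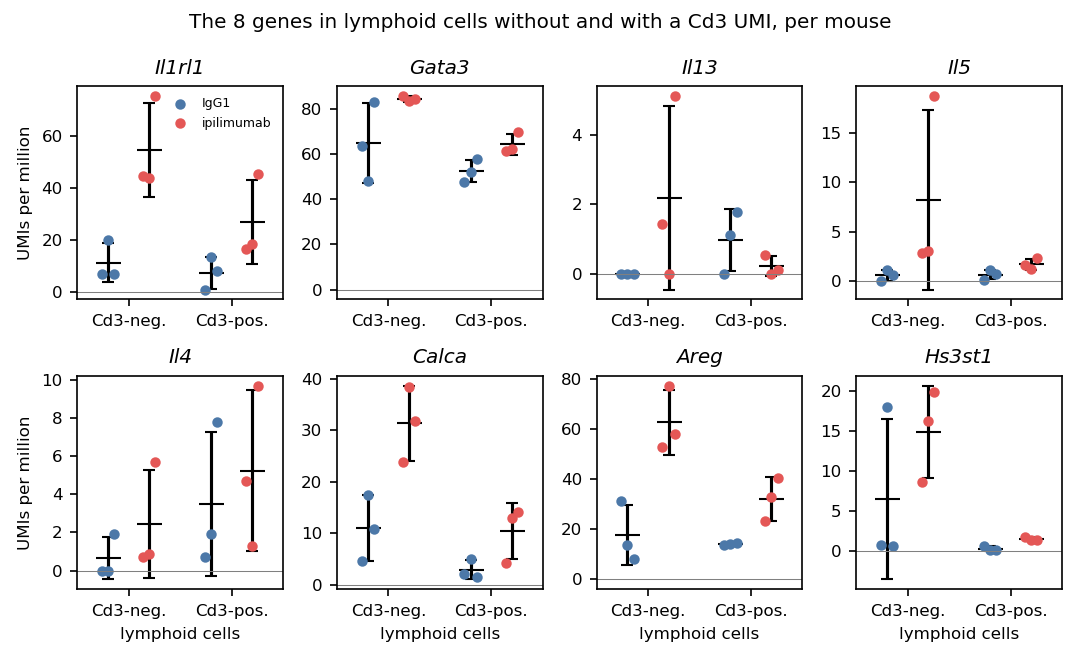
Each panel is 1 gene, points are the 3 mice of each group in CPM of lymphoid cells without (left) and with (right) a Cd3 UMI, blue IgG1 and red ipilimumab, and the black bars are mean and SD. Il1rl1 and Areg without a Cd3 UMI are the 2 panels in which the test called the gene, with all 3 ipilimumab points above all 3 IgG1 points.

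In lymphoid cells with a Cd3 UMI no gene of the 11712 tested was called (0%), although 1021 genes had an unadjusted p below 0.05 and the DESeq2 test called 20 genes. Areg stood at 13.8, 14.2 and 14.3 CPM with IgG1 and at 23.1, 32.9 and 40.5 with ipilimumab (log2 difference 1.19, SE 0.19, edgeR adjusted p = 0.281). Il1rl1 stood at 0.995, 13.4 and 8.05 with IgG1 and at 16.7, 18.5 and 45.5 with ipilimumab (1.87, SE 0.57, edgeR adjusted p = 0.461). Calca stood at 2.13, 5.00 and 1.56 against 4.16, 13.01 and 14.2 (1.92, SE 0.50, edgeR adjusted p = 0.448), where IgG1 mouse 2 lay above ipilimumab mouse 1. Areg was called under 4 of 14 alternatives, by DESeq2 (adjusted p = 7.44e-05) and by edgeR with no filter on low counts, without IgG1 mouse 2 and without ipilimumab mouse 1 (adjusted p = 7.48e-08, 0.0430 and 0.0098). Il1rl1 and Calca were called with no filter alone (edgeR adjusted p = 2.38e-06 and 1.06e-05). Gata3, with 47.8, 51.9 and 57.7 against 61.5, 62.0 and 69.8 CPM, Hs3st1, with 5, 1 and 1 against 13, 11 and 12 UMIs, and Il5, with 1, 7 and 6 against 12, 9 and 19 UMIs, also did not overlap in CPM. For Hs3st1, 27 of its 43 UMIs in cells with a Cd3 UMI were from the 10 ILC2-like cells among them. The groups did not overlap for 5 of the 8 genes, 1 of them Il5, which had too few UMIs to be tested. For 7.04% of the genes tested, every ipilimumab mouse lay above every IgG1 mouse. At an unadjusted p below 0.05, 5 of the 8 were higher with ipilimumab, as were 5.28% of the genes tested. Hs3st1, 1 of these 5, passed the filter on low counts only through the ipilimumab mice. Since the 8 genes were chosen with these data known, their counts beside these shares are not independent evidence.

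Il4 and Il13 did not follow the others in cells with a Cd3 UMI. Il4 had 5, 12 and 70 UMIs with IgG1 and 35, 10 and 80 with ipilimumab (0.50, SE 0.73, edgeR adjusted p = 0.871), a range within each group wider than the difference between them. Il13 had 0, 7 and 16 UMIs with IgG1 and 4, 0 and 1 with ipilimumab, too few to be tested. No difference in the ipilimumab effect between cells without and with a Cd3 UMI was called for the 7 genes tested. The adjusted p ran from 0.849 to 0.966 (edgeR, gate by treatment), and 1 of 11439 genes, 0.00874%, was called. With 3 mice per group this does not show that the effect was alike in both gates. The estimates were 0.50 (SE 0.39) for Il1rl1 and 0.74 (SE 0.35) for Areg, as the log2 difference without Cd3 minus that with Cd3. For Il5 it was 2.21 (SE 1.06), which carries no weight. Il5 passed the filter on low counts only through the ipilimumab sums without a Cd3 UMI, where it was highest. In those sums it had 4, 7 and 33 UMIs in ipilimumab mice 1, 2 and 3.

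Over all cells of a mouse, 0 of 17419 genes were called by edgeR (0%), 906 had an unadjusted p below 0.05 and DESeq2 called 60, Calca among them. Calca stood at 0.735, 1.74 and 1.39 CPM with IgG1 and at 4.18, 4.77 and 4.58 with ipilimumab (1.75, SE 0.32, edgeR adjusted p = 0.837, DESeq2 adjusted p = 0.000861). Il1rl1 stood at 2.18, 5.89 and 3.26 against 8.53, 7.63 and 16.9 (1.49, SE 0.47, edgeR adjusted p = 0.871). Il5 stood at 0.0545, 0.266 and 0.211 against 0.625, 0.480 and 1.39, and Areg at 19.1, 19.1 and 11.6 against 24.8, 29.8 and 24.5. These 4 of the 8 genes did not overlap between the groups, and every ipilimumab mouse lay above every IgG1 mouse for 7.93% of all genes tested. At an unadjusted p below 0.05 the same 4 were higher with ipilimumab, as were 3.37% of all genes tested. The choice of the 8 genes with these data known limits these counts too. Gata3, Il4, Il13 and Hs3st1 overlapped.

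Outside the clusters counted as lymphoid, each gene was tested in the class with the most of its UMIs. Classes with at least 5 cells in every mouse were used, and 0 of the 4 genes with enough UMIs were called by edgeR. For Gata3 and Il4 this was the proliferating-like class, in whose clusters 97.3% and 94.4% of cells had a Cd3 UMI. Hs3st1 in B-like cells stood at 122, 87.6 and 111 CPM with IgG1 and at 79.9, 124 and 87.7 with ipilimumab, and Areg in alveolar macrophage-like cells at 29.98, 26.1 and 24.2 against 38.9, 28.7 and 14.7. Il1rl1 in interstitial macrophage-like cells stood at 15.7, 12.4 and 17.7 against 23.0, 13.1 and 41.4 and Gata3 in proliferating cells at 109, 65.0 and 204 against 118, 117 and 102. All 4 overlapped between the groups, and the share of all genes called in these classes was 0%. For Il13, the neutrophil-like cluster gave 8, 2 and 10 UMIs with ipilimumab and none with IgG1, too few to be tested. The basophil and mast cell gate, whose cells were not taken out of any class, held 8, 2 and 12 in the same mice. Whether these were the same cells was not tested. The 20 Il13 UMIs of the neutrophil-like cluster came from 4 cells. In that cluster 3 of 5286 genes, 0.0568%, were called, among them Cd200r3, a receptor gene of basophils and mast cells and 1 of the gate's markers, at 0, 0 and 1.17 against 13.6, 15.5 and 11.3 CPM and named after its values were seen.

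Other genes of the pathway were read from 6 lists. Of the 25 genes of ILC2 identity and regulation, 18 were tested in lymphoid cells without a Cd3 UMI and 2 were called, both higher: Il2ra, the alpha chain of the IL-2 receptor (log2 change 2.30, SE 0.35), and Cxcr6, a chemokine receptor of tissue-resident lymphocytes (1.57, SE 0.26, edgeR adjusted p = 0.0149 and 0.0296). The median log2 difference of the 18 was 0.50, beside 0.00 over all genes tested. None of the 17 genes tested from the other lists was called there, and none of any list was called over all cells or in cells with a Cd3 UMI, where the median of 22 genes of ILC2 identity was 0.62. Called genes outside the lists included Ptpn13, a tyrosine phosphatase (9.37 against 58.3 CPM in the mean), Inpp4b, a phosphoinositide phosphatase (90.8 against 278), and Dgat2, an enzyme of triglyceride synthesis (0.394 against 9.91), all named after their values were seen.

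Partners of the 8 genes were found in several cell types, some of them in the ILC2-like cells too. Of 743 Il33 UMIs, 59.1% were in fibroblast-like and 35.3% in AT2-like cells, with 0 in ILC2-like cells. Tslp, another alarmin, had 116 UMIs, 69.0% in fibroblast-like cells, and Il25 had 0 UMIs. Il1rap, the partner chain of ST2, stood at 1056 CPM in neutrophil-like and 27.8 in ILC2-like cells, where 8 cells held it, against 73.0 over all cells. Il5ra was found in B-like cells for 88.6% of its UMIs, Csf2rb in alveolar macrophage-like cells for 75.5% and Egfr in fibroblast-like cells for 79.2%. Both chains of the CGRP receptor were found in the ILC2-like cells, Ramp1 at 233 CPM against 91.3 over all cells and Calcrl at 169 against 121, and Calcrl stood at 3194 in blood endothelial-like cells. Il4ra stood at 117 CPM in ILC2-like cells against 92.9 over all cells, and Il13ra1 had 0 UMIs there.

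Across 57 clusters, with 17768 genes compared and Pearson's r of log2(CPM + 10) as a description, the genes most like Il1rl1 were Gm20627 (0.88), Ccr8 (0.86) and Il5 (0.83). Il5 was most like Dach2 (0.95), Ccl1 (0.94) and Gm41414 (0.94), and Calca was most like Csf2 (0.85), Gm41414 (0.82) and Gm15511 (0.81). Il13 and Il4 were among each other's nearest genes (0.88), Il13 with Gm46210 (0.90) and Gm44851 (0.82) and Il4 with Gm37202 (0.81) and Gm12367 (0.78). Gata3 was most like Ndfip1 (0.88), Stk39 (0.87) and Tnfrsf18 (0.86), and Areg most like Mns1 (0.76), Ptpn13 (0.74) and Nav2 (0.69). Hs3st1 was most like Rasgrp3 (0.78), 4930513D17Rik (0.77), a gene 10.4 kb away, and Dennd5b (0.75). Clusters share libraries and differ in depth, and without the ILC2-like cluster these r ran from 0.63 to 0.94.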

How the data were processed

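The deposited values are counts of UMIs per gene and barcode, with all barcodes kept, made by the authors with Cell Ranger (version 7.0.0 per the processing notes) on mm10. Their later ambient correction and integration were not used. Cells were called per library by UMI total (10% of the 99th percentile of the top 5000 barcodes) or by profile against empty droplets (at least 500 UMIs, false discovery rate 0.01). Cells with under 200 genes or over 10% mitochondrial UMIs and predicted doublets (0.8% per 1000 cells; 90 to 163 per library) were removed. Clusters (leidenalg 0.10.2, 2000 variable genes, 10 components, resolution 0.8) were found without the 8 genes and Cd3e, Cd3d and Cd3g, and named from marker lists. The limit that at most 0.5 of an ILC2-like cluster's cells hold a Cd3 UMI was added after the data were seen and kept 2 clusters led by ILC2 markers out of the name. Counts were summed per mouse (sums with under 5 cells left out) and tested with edgeR 4.0.16 (TMM, quasi-likelihood, adjusted p below 0.05 and a log2 change over 0.3 across all genes passing the filter). DESeq2 1.42.0 was an alternative. The tests were checked on simulated data. The members, lists and tests were chosen with earlier results of these data known. Genes named besides the 8 are the 3 most correlated with each over clusters, the called genes of the lists and fixed partners; Ptpn13, Inpp4b, Dgat2 and Cd200r3 were named after their values were seen; 1 called gene is not reported here. Mice are the replicates, 3 per group. The columns of samples not used number 0.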

Additional observations from a re-analysis of the deposited data

Results flagged for a closer look

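In barcodes not called as cells, which no comparison used, 3 of the 8 genes were higher in each ipilimumab library than in any IgG1 library, as were 3.51% of the 17735 genes with at least 10 UMIs in these barcodes. Il1rl1 had a mean of 11.2 CPM (counts per 1e6 UMIs) with ipilimumab (8.96 to 13.8) and 5.14 with IgG1 (3.19 to 8.71). Il5 had a mean of 0.771 with ipilimumab (0.543 to 0.889) and 0.1001 with IgG1 (0 to 0.3003). Calca had a mean of 11.9 with ipilimumab (8.20 to 17.3) and 3.69 with IgG1 (1.59 to 4.97). These barcodes held 240 Il1rl1, 15 Il5 and 213 Calca UMIs, which were 10.4%, 10.6% and 20.7% of all UMIs of each gene.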

How the results depend on the processing

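Over 37 results and 19 alternatives, 429 values kept their direction and side of the threshold or moved within the limits set, 25 moved, 11 became and 12 ceased to be called, and 14 changed sign. DESeq2 called 60 genes over all cells, 20 with a Cd3 UMI and 2 for the difference between gates. With no filter on low counts, 293 genes were called with a Cd3 UMI, 78 without and 103 for the difference between gates. The same setting called 1 gene in its other class (Il13, neutrophil-like, edgeR adjusted p = 0.000187), whose 20 UMIs there came from 4 cells. That setting also called Il5 without a Cd3 UMI (edgeR adjusted p = 8.75e-05). Cells called by UMI total alone gave 0 calls for the difference between gates, and keeping doublets gave 4 with a Cd3 UMI and 7 for that difference. Leaving out 1 mouse gave 0 to 69 calls with a Cd3 UMI (69 without IgG1 mouse 2), 0 to 16 without one (0 without ipilimumab mouse 2, 16 without ipilimumab mouse 1), 0 to 11 for the difference between gates, and a log2 difference in the ILC2-like share of 1.65 to 2.41. Without the ILC2-like cells, added after seeing the data, 0 genes were called without a Cd3 UMI, and these cells held most UMIs of Il1rl1 and Areg there. Signs changed for Gata3 and Calca without a Cd3 UMI (-0.38 and -0.28 without ILC2-like cells) and for Il13 over all cells (-0.0146 without ILC2-like cells). When 1 mouse was left out, Il13 over all cells ran from -0.23 (without IgG1 mouse 1) to 1.66, Il4 with a Cd3 UMI from -0.31 (without ipilimumab mouse 3) to 2.00, Gata3 in proliferating cells from -0.47 to 0.46 (without IgG1 mouse 3) and Areg in alveolar macrophage-like cells from -0.28 to 0.28 (without ipilimumab mouse 3; 0.0733 without IgG1 mouse 1). Areg there stood at 0.000571 by DESeq2, 0.00149 with no filter and 0.0115 by UMI total alone. The difference between gates ran from -0.0678 (without IgG1 mouse 2) to 0.25 for Gata3 and from -2.31 to 2.39 (without IgG1 mouse 2) for Hs3st1, which stood at 0.0710 with the Cd3 gate at 2 UMIs, also added after seeing the data. The replicate block gave 3 calls with and 13 without a Cd3 UMI and 2.12 for the ILC2-like share, but same-numbered mice did not deviate together (r from -0.16 to 0.33), so the numbers do not pair the mice. A fit within ILC2-like cells was not run, because each IgG1 mouse had under 5 of them. The causes were not tested. Il13, Il5 and Il4 rest on few UMIs, which limits what their counts can show.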
